A study of Mus musculus with 2 samples.

Results

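Retinoic acid, the active form of vitamin A, is made in embryonic cells by retinal dehydrogenases, carried in the cytosol by binding proteins, read out by nuclear receptors and broken down by cytochrome P450 enzymes. The group described here holds 9 genes of that path: the retinal dehydrogenase genes Aldh1a2 and Aldh1a3, the binding protein genes Crabp1 and Crabp2, the receptor genes Rara, Rarb and Rarg, and the breakdown enzyme genes Cyp26a1 and Cyp26b1. Members were taken as every probe set annotated with exactly 1 symbol from this list, which gave 12 of the 34945 probe sets with 1 symbol and all 9 genes out of 18193. Probe sets are groups of short probes for 1 transcript region on an Affymetrix array. Aldh1a3 had 3 of them, Rarg 2 and each of the other genes 1.

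The cells came from embryos of Col2a1-Venus-Tg mice on a C57Bl/6 background, in which chondrocytes, the cells that build cartilage, carry Venus, a modified green fluorescent protein. Col2a1 encodes the main collagen of cartilage. Cells sorted by fluorescence formed a Venus-positive group and a Venus-negative group, each with 1 sample and 1 array, and both carry the same transgene and share the same background. The sources used here do not give the stage, the number of embryos or the sorting gates, and the Venus-negative group need not hold every other cell of the embryo. With 1 array per group there is no spread between samples and no test. Every value below describes this pair of arrays.

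Values are MAS5 signals, a linear intensity for each probe set. Signals under 22.5, the median of all signals of both arrays, are treated as too dim to order, and were raised to this floor before the log2 ratio was taken, with Venus-positive on top. If the dimmer array read less than the floor, a fold can only be bounded from below and is written "at least". Genes with a signal at the floor or above on either array, 11789 in all, are called measured. The Venus-positive array was the dimmer, with a median log2 ratio of -0.33 over measured genes, a signal lower by 1.26-fold for the typical gene. "Relative" log2 ratios have this median subtracted. As a guide to probe error, log2 ratios of different probe sets for the same gene scattered with a pooled SD of 0.34 over 5445 genes. When measured genes were split by brightness into 3 groups of equal size, this SD was 0.48 in the dimmest and 0.29 in the brightest group. It holds no error between samples. It was also taken from ratios with signals raised to the floor, which can narrow the scatter of dim probe sets. The sort was reflected in 12 chondrocyte markers listed for this work. All 12, with Col2a1 among them, exceeded 2-fold in favour of Venus-positive cells. Their summed signal was 54635 in Venus-positive cells against 3601 in Venus-negative cells, where 1 marker was below the floor. Col2a1 names the reporter, and the list was chosen with earlier results of these arrays known. The markers are thus no independent check of the sort.

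In developing limbs and trunk, retinoic acid made in mesenchyme spreads to neighbouring cells, and enzymes of the Cyp26 family keep it out of places where it would disturb patterning. Excess retinoic acid blocks the formation of cartilage from mesenchyme and, as vitamin A excess, is a classical cause of skeletal malformation. In growth plate cartilage of the mouse, the receptor encoded by Rarg is the main retinoic acid receptor.

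The 9 genes did not all differ in the same direction between the fractions. Aldh1a2, Rarb, Crabp1 and Crabp2 were each more than 4-fold lower in Venus-positive cells. Cyp26a1 and Cyp26b1 were higher, by at least 2.10-fold and by 1.83-fold, and Rarg was 1.34-fold higher. For Aldh1a3 and Rara, which were below the floor in Venus-positive cells, only bounds under 2-fold could be given. All 9 genes were measured on at least 1 array, through 10 of the 12 probe sets.

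Counted at a fixed size of 2-fold, 4 of the 9 genes (44.4%) were lower and 1 (11.1%) was higher in Venus-positive cells. Over all measured genes 11.6% were at least 2-fold lower and 2.79% at least 2-fold higher. Relative to the median gene, 4 were lower and 2 were higher, Cyp26b1 being the second, beside 6.45% and 5.06% of all measured genes. At 4-fold, 4 genes were lower and none higher, beside 2.24% and 0.874% of measured genes. On the relative scale 2 genes, Aldh1a2 and Rarb, were still more than 4-fold lower and none was that much higher, beside 1.31% and 1.2% of measured genes. The median log2 ratio was -0.78 for the 9 genes, which is the bound of Aldh1a3, and -0.33 for all measured genes. Since the members were chosen with results of these arrays known, these shares are set side by side as a description.

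**Figure D1:**
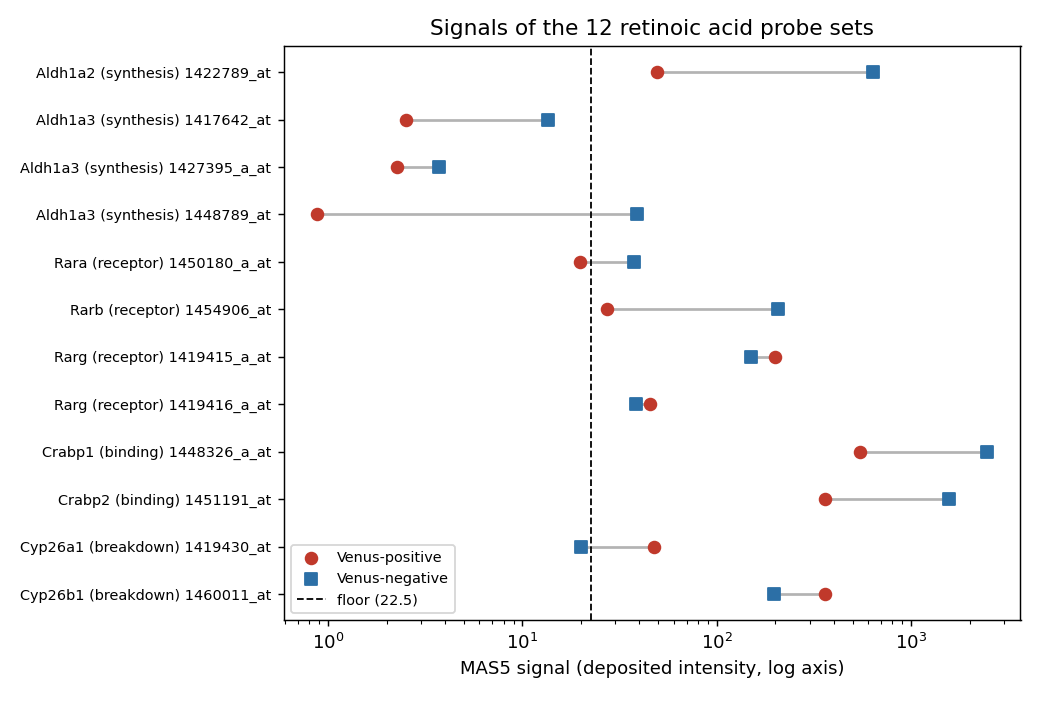
MAS5 signal (log axis) of the 12 probe sets, 1 row per probe set, with red circles for the Venus-positive and blue squares for the Venus-negative array and a dashed line at the floor of 22.5. The red circle lies left of the blue square for Aldh1a2, Rarb, Crabp1 and Crabp2 and right of it for both Rarg probe sets, Cyp26a1 and Cyp26b1. Each point is 1 measurement, so there are no error bars.

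Aldh1a2 encodes the retinal dehydrogenase that makes most of the retinoic acid of the early mouse embryo. Its probe set had a signal of 49.0 in Venus-positive cells against 639 in Venus-negative cells. This was 13.0-fold lower in Venus-positive cells, a log2 ratio of -3.70, or -3.37 relative to the median gene. It was the lowest ratio among the 9 genes, and 0.11% of measured genes had a lower one. Its Venus-positive signal was still above the floor, so the fold is measured on both sides, although a floor at the 75th percentile of signals cuts the log2 ratio to -2.48.

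Aldh1a3, whose enzyme supplies retinoic acid mainly in eye and nasal tissues of the mouse embryo, was at the limit of measurement. One probe set read 0.880 in Venus-positive cells against 38.8 in Venus-negative cells, which is at least 1.72-fold lower. The other probe sets read 2.51 and 2.27 in Venus-positive cells against 13.5 and 3.71 in Venus-negative cells, all below the floor. All 5 readings under the floor have no order, so the gene contributes a dim signal in Venus-negative cells on 1 probe set and no more. A floor lowered to the 25th percentile turns its log2 ratio of -0.78 into -2.90, and the size of its difference thus depends on where the floor is set.

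Crabp1 and Crabp2 encode the cytosolic retinoic acid binding proteins. The first is linked to the metabolism of retinoic acid, and the second hands it to the receptors in the nucleus. Crabp1 had a signal of 548 in Venus-positive cells against 2452 in Venus-negative cells, 4.48-fold lower, with a log2 ratio of -2.16. Crabp2 had a signal of 358 in Venus-positive cells against 1566 in Venus-negative cells, 4.37-fold lower, with a log2 ratio of -2.13. The log2 ratios of the pair were thus closer to each other than the probe error of 0.29 for bright genes. Relative to the median gene, Crabp1 was 3.56-fold and Crabp2 3.48-fold lower, both under 4-fold. Both genes lay well above the floor on both arrays, and neither ratio depended on the floor settings tried. A lower ratio was found for 1.70% of measured genes in the case of Crabp1 and for 1.82% in that of Crabp2.

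The receptor genes did not go together. Rarb had a signal of 27.2 in Venus-positive cells against 206 in Venus-negative cells. It was 7.58-fold lower in Venus-positive cells, with a log2 ratio of -2.92, and 0.585% of measured genes had a lower ratio. The Venus-positive signal sat just above 22.5. A floor raised to the 75th percentile gave a log2 ratio of -0.85, so the size of the fold is set largely by how far down a dim signal is read.

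Rarg gave the opposite direction on both of its probe sets. The brighter read 199 in Venus-positive cells against 149 in Venus-negative cells, and the dimmer 45.5 in Venus-positive cells against 38.3 in Venus-negative cells. These were 1.34-fold and 1.19-fold higher, log2 ratios of 0.42 and 0.25, or 0.75 and 0.58 relative to the median gene. The deposited-scale ratio of the dimmer probe set is smaller than the pooled probe error of 0.34, and neither probe set reaches 2-fold on either scale. Rara, the receptor gene expressed in most embryonic tissues, was near the floor on both arrays. Its signal was 19.8 in Venus-positive cells against 37.5 in Venus-negative cells, at least 1.66-fold lower, and on the relative scale its log2 ratio was -0.40.

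Cyp26a1 and Cyp26b1 encode P450 enzymes that oxidise retinoic acid to inactive products, and in the mouse Cyp26b1 is needed for normal limb and skull development. Cyp26b1 had a signal of 360 in Venus-positive cells against 196 in Venus-negative cells. It was 1.83-fold higher, a log2 ratio of 0.87, and 2.30-fold higher relative to the median gene. Cyp26a1 had a signal of 47.3 in Venus-positive cells and 20.0, below the floor, in Venus-negative cells, which is at least 2.10-fold higher and, relative to the median gene, at least 2.65-fold. Few measured genes had higher ratios, 3.47% for Cyp26b1 and 2.45% for Cyp26a1. Cyp26a1 lies in the dimmest of the 3 brightness groups, where probe sets of the same gene scatter by 0.48, so its log2 ratio of 1.07 is the less firm of the pair. Cyp26b1 lies in the brightest.

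**Figure D2:**
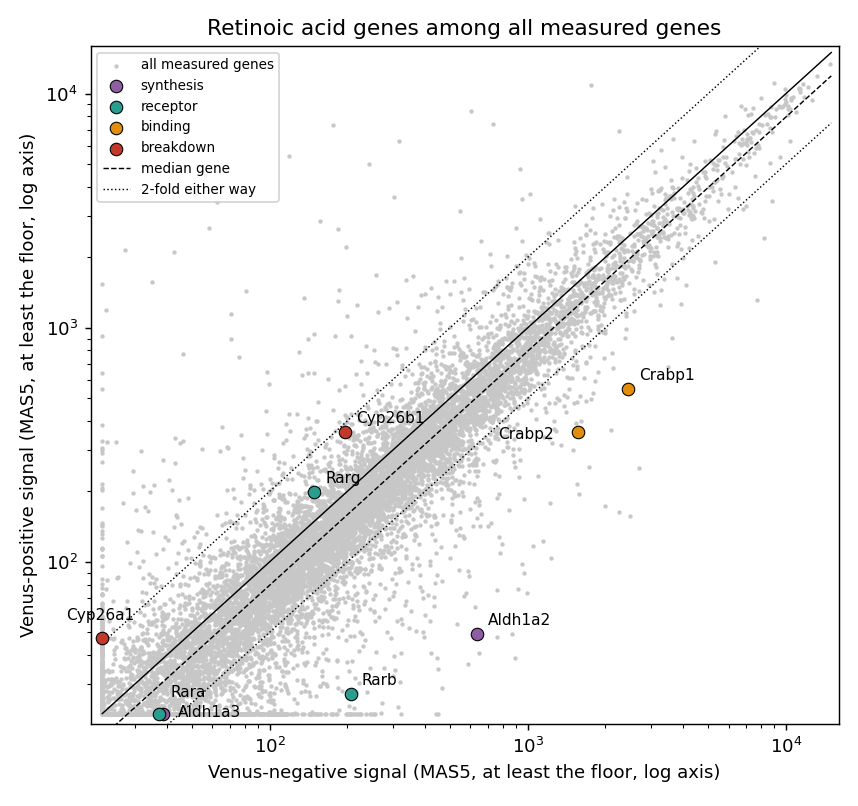
Venus-positive signal against Venus-negative signal, both on log axes and raised to the floor of 22.5, for the 11789 measured genes (grey) and the 9 retinoic acid genes coloured by role. The solid line marks equal signal, the dashed line the median gene and the dotted lines 2-fold either way. Aldh1a2, Rarb, Crabp1 and Crabp2 lie below the lower dotted line. Cyp26a1 lies just above the upper dotted line, and Cyp26b1 and Rarg lie between it and the solid line.

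Rarb and Cyp26a1 are both textbook targets of their own pathway: retinoic acid receptors, paired with RXR receptors, bind direct repeats of a short half-site in their promoters and switch them on. The promoter sequences are shown because these 2 genes have the same kind of element and opposite ratios on the arrays. RefSeq promoter windows of 300 bases (GRCm38.p6, 250 bases before to 50 after a start) were at hand for 7 of the 9 genes, in 11 windows, and were searched on both strands for 2 half-sites in the same direction with 5 bases between them. A half-site was AGGTCA or any of the 3 other forms in which the first base may also be G and the third may also be T. The 250 bases before the start of Rarb (chr14:16575477-16575726, minus strand) and of Cyp26a1 (chr19:37697558-37697807, plus strand) are given 5′ to 3′ on the strand of the gene, with the repeat in capitals.
Rarb: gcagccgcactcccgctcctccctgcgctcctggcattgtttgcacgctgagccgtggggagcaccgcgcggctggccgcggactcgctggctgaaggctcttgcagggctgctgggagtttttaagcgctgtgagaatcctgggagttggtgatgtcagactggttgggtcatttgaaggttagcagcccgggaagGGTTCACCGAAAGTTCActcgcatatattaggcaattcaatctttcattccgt
Cyp26a1: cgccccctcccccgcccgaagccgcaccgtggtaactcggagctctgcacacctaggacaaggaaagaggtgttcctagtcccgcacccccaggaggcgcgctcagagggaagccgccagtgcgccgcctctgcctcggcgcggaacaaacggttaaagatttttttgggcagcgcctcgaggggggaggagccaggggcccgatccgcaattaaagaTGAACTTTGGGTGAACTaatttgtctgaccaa

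In Rarb the repeat ran from 53 to 37 bases before the start, on the strand of the gene. In Cyp26a1 it ran from 32 to 16 bases before the start, on the opposite strand. Both are written below in the reading direction of the repeat, with the half-sites in capitals and the 5 bases between them in lower case.
Rarb repeat: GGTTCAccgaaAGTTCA
Cyp26a1 repeat: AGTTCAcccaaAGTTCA

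The second half-site was the same in both genes and the first was not. Such a repeat was rare in these windows: 32 of 32851 mouse windows (0.0974%) held one, among them 2 of the 11 windows of the members. Repeats of the same half-sites with 2 bases between them, found in 0.268% of windows, or with 1 base between them, found in 0.222%, were in none of the 11. Of the other retinoid and target genes listed for this work, 43 had a window and none held the repeat with 5 bases between. The 2 member windows are those of Rarb and Cyp26a1, textbook targets through such repeats. Finding the repeat there was likely beforehand, so these shares are a description and no test of the members. A match is a run of letters and no measure of binding, and elements outside these windows were not searched. On the arrays, Rarb was 7.58-fold lower and Cyp26a1 at least 2.10-fold higher in Venus-positive cells. Both ratios have 1 dim side, beside a floor of 22.5. Rarb read 27.2 in Venus-positive cells, and Cyp26a1 read 20.0 in Venus-negative cells.

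The wider retinoid machinery was a list of 42 other genes, written for this work with earlier results of these arrays known. Of the 25 that were measured, 1 (4%) was at least 2-fold higher in Venus-positive cells and 3 (12%) were at least 2-fold lower. Over all measured genes these shares were 2.79% and 11.6%. Of the other 21, 16 were measured on both arrays and within 2-fold on their brightest probe set, and 5 had 1 side below the floor, so that only a bound under 2-fold is known. Their median log2 ratio was -0.45, close to the -0.33 of all measured genes. Relative to the median gene, 3 (12%) were higher and 2 (8%) lower, beside 5.06% and 6.45% of all measured genes.

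The steps before retinal dehydrogenase included one gene lower on both of its probe sets. Rdh10, the retinol dehydrogenase gene that the mouse embryo needs to turn retinol into retinal, had a signal of 216 in Venus-positive cells against 619 in Venus-negative cells. This was 2.87-fold lower, and its probe sets gave log2 ratios of -1.52 and -1.51. Adh1, an alcohol dehydrogenase gene, had a signal of 12.2, below the floor, in Venus-positive cells against 70.5 in Venus-negative cells, at least 3.14-fold lower. Of the remaining 7 measured genes for retinol oxidation and retinal reduction, 6 were above the floor on both arrays and within 2-fold and 1 had only a bound. Among the 6 was Adh5, at 1149 in Venus-positive cells against 1531 in Venus-negative cells. Dhrs3, whose enzyme turns retinal back into retinol, was nearly level, at 159 in Venus-positive cells against 163 in Venus-negative cells. Aldh1a1, the third retinal dehydrogenase gene of this family, was dim, at 5.48 in Venus-positive cells against 34.1 in Venus-negative cells, at least 1.52-fold lower. Its close mouse relative Aldh1a7 can share probe targets with it.

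Among carriers and stores, Rlbp1, which encodes a retinal binding protein known from the retina, had a signal of 114 in Venus-positive cells against 7.43, below the floor, in Venus-negative cells. It was at least 5.05-fold higher, on 1 probe set. Scarb1, a lipoprotein receptor gene that also serves carotenoid uptake, had a signal of 221 in Venus-positive cells against 138 in Venus-negative cells, 1.60-fold higher. Its 3 probe sets ran from 0.68 to 1.04 on the log2 scale. Ttr, which encodes the blood carrier that holds the retinol binding protein, was 1.59-fold higher on its brightest probe set and ran from 0.04 to 0.76 on the log2 scale over 3 measured probe sets. On their brightest probe sets, Scarb1 and Ttr reached 2-fold only relative to the median gene, at 2.02-fold and 2.00-fold. Fabp5, whose protein can carry retinoic acid to a different nuclear receptor, had a signal of 1454 in Venus-positive cells against 3291 in Venus-negative cells, 2.26-fold lower, though within 2-fold relative to the median gene at 1.80-fold.

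Among the partner receptors and cofactors no brightest probe set reached 2-fold on either scale. Rxrb had a signal of 219 in Venus-positive cells against 300.2 in Venus-negative cells, and all 3 RXR genes had log2 ratios between -0.76 and 0.01, the lowest being a bound for Rxrg, which was below the floor in Venus-positive cells. Ncoa2, a coactivator gene, had a signal of 489 in Venus-positive cells against 556 in Venus-negative cells. Ncoa1, also a coactivator gene, was the nearest to 2-fold, with a signal of 163 in Venus-positive cells against 327 in Venus-negative cells on its brightest probe set. The second of its measured probe sets was past 2-fold on both scales, at 111 in Venus-positive cells against 328 in Venus-negative cells, a log2 ratio of -1.56.

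**Figure D3:**
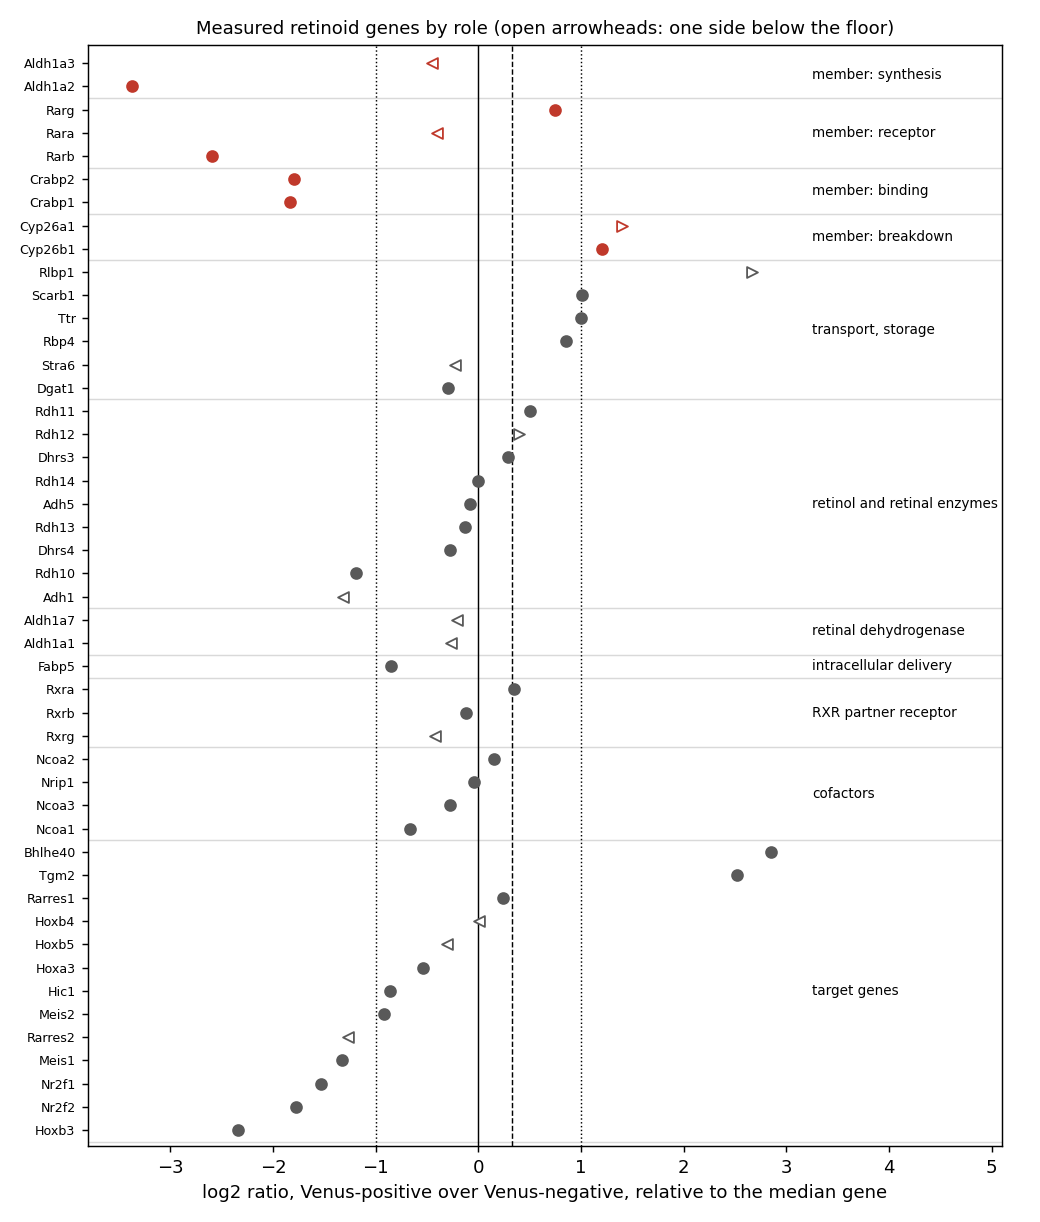
Log2 ratio, with Venus-positive on top, relative to the median gene, 1 row per measured gene, for the 9 members (red), the other retinoid genes and the target genes (grey), grouped by role. Open arrowheads mark genes with 1 side below the floor and point the way the true ratio may lie, dotted lines mark 2-fold, and the dashed line marks equal deposited signal. Aldh1a2 at -3.37 is the lowest point and Bhlhe40 at 2.85 the highest.

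A list of 25 genes known as retinoic acid targets, which holds Rarb, Cyp26a1 and Crabp2 as well, had 19 measured. Of these, 9 reached 2-fold in favour of Venus-negative cells and 3 in favour of Venus-positive cells, with a median log2 ratio of -0.87. Over all measured genes the shares were 11.6% and 2.79% and the median was -0.33. Leaving the 3 members aside, 7 of 16 were lower and 2 higher, and the median was -0.76. Relative to the median gene these 16 held 5 lower and 2 higher genes, beside 6.45% and 5.06% of all measured genes.

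The lower targets outside the members were mostly transcription factor genes, as was much of the list. Nr2f2, which encodes an orphan nuclear receptor, had a signal of 142 in Venus-positive cells against 611 in Venus-negative cells on its brightest probe set, 4.31-fold lower. Over its 5 measured probe sets the log2 ratio ran from -2.27 to -0.32, the last being a bound. The related gene Nr2f1 was 3.64-fold lower, at 69.4 in Venus-positive cells against 253 in Venus-negative cells. Hoxb3, a patterning gene of the Hox family, was 6.38-fold lower on its brighter probe set, at 28.9 in Venus-positive cells against 185 in Venus-negative cells. Its dimmer probe set was at least 1.58-fold lower, with a signal below the floor in Venus-positive cells. The homeobox genes Meis1 and Meis2, which specify proximal limb, were 3.16-fold and 2.38-fold lower on their brightest probe sets. The other measured probe set of Meis1 was dim and at least 1.86-fold lower. The repressor gene Hic1 was 2.29-fold lower. Rarres2, which encodes a secreted chemoattractant, was at least 3.03-fold lower on its brightest probe set and at least 2.11-fold lower on the other measured one. Relative to the median gene Hic1 was within 2-fold. Meis2 was within 2-fold on its brightest probe set on that scale, at 1.89-fold, but its 4 probe sets ran from -1.90 to -1.25 on the deposited log2 scale, and 2 of them were past 2-fold on the relative scale, at 2.14-fold and 2.97-fold.

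The 2 higher targets outside the members were each more than 4-fold higher on the brightest probe set. Bhlhe40, which encodes a repressor of the basic helix-loop-helix family that hypoxia also induces, had a signal of 574 in Venus-positive cells against 99.9 in Venus-negative cells, 5.74-fold higher. Tgm2, the gene of a transglutaminase that crosslinks proteins and is known from maturing cartilage, had a signal of 443 in Venus-positive cells against 97.1 in Venus-negative cells on its brightest probe set, 4.56-fold higher. Its 5 measured probe sets ran from 0.95 to 2.56 on the log2 scale. The brightest is an _x_at probe set, and the measured ones of other types were 3.76-fold and 1.94-fold higher.

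The fractions also differed in markers of other cells, listed here because several members are known from such cells. Of 14 fibroblast and perichondrium markers, 9 were lower in Venus-positive cells by 2-fold or more, the size counted for all these lists, and their summed signal was 18582 in Venus-positive cells against 35195 in Venus-negative cells. All 11 skeletal muscle markers were lower, with sums of 474 in Venus-positive cells against 5010.5 in Venus-negative cells. For 10 epithelial markers 9 were lower, with sums of 407 in Venus-positive cells against 1789 in Venus-negative cells.

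Neuron and glia markers were lower for 6 of 10 measured, with sums of 277 in Venus-positive cells against 1029 in Venus-negative cells. All 8 endothelial markers were lower, with sums of 175 in Venus-positive cells against 939 in Venus-negative cells. Leukocyte markers were lower for 7 of 8, with sums of 161 in Venus-positive cells against 1913 in Venus-negative cells. Erythroid markers were lower for 5 of 6, with sums of 1676 in Venus-positive cells against 11864 in Venus-negative cells. No marker was at 0 on either array, as no value of these arrays was. Below the floor in Venus-positive cells were 5 of the muscle, 5 of the leukocyte, 4 of the epithelial and 4 of the neuron and glia markers. So were 3 of the endothelial, 2 of the erythroid and 2 of the fibroblast markers. Over all measured genes 11.6% were at least 2-fold lower. Relative to the median gene, the counts of lower markers were 8 for fibroblast and perichondrium, 10 for skeletal muscle, 8 for epithelium, 4 for neuron and glia, 8 for endothelium, 7 for leukocytes and 5 for erythroid cells, beside 6.45% of all measured genes. On that scale 1 neuron and glia marker was 2-fold higher. The part of these cell types in the ratios of Aldh1a2, Rarb, Crabp1 and Crabp2 was not tested. In such bulk samples, fewer cells of a type and less RNA per cell cannot be told apart.

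**Figure D4:**
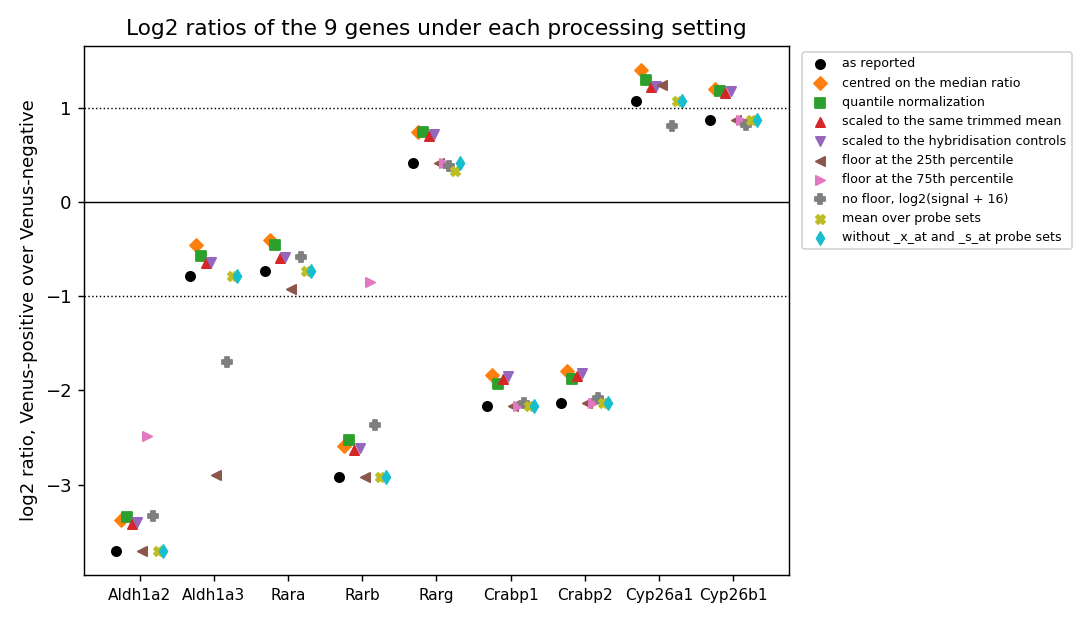
Log2 ratio, with Venus-positive on top, for the 9 genes as reported (black circles) and under 9 other settings of scale, floor and probe set choice (coloured markers), with dotted lines at 2-fold. All 9 genes stay on the same side of 0 in every setting that gives a value, and Aldh1a3 and Rarb spread the most, from -2.90 to -0.45 and from -2.92 to -0.85.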

How the data were processed

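RNA of 1 Venus-positive and 1 Venus-negative sample, biotin-labelled from 100 ng of total RNA per the labels' protocols, was measured on 1 array each. The deposited values are linear intensities made by the authors with MAS5, as the submitters' processing notes state. The sources used here do not give its version, scaling target or detection calls. None of the 45101 values per array was 0 or less, with trimmed means (2% off each end) of 109 for Venus-positive and 133 for Venus-negative cells. The number of arrays limits the precision.

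After leaving out 64 control probe sets, 34945 probe sets had 1 symbol, 932 several and 9160 none in the platform annotation, which can be old. The symbols of the 9 members matched RefSeq. The brightest measured probe set stood for a gene. Sizes of 2-fold and 4-fold are not tests. The members and lists were chosen with earlier results of these data known. Named were all members, listed pathway and target genes past 2-fold on either scale, and the brightest gene of each role. Dhrs3, Aldh1a7, Rxrg and Ncoa1 were added after their values were seen. The steps from signals to gene ratios were tested on simulated data in which only genes well above the floor were changed. Changes in dim genes, error between samples and the promoter search were thus not covered. Python 3.11.15, numpy 2.4.6, pandas 2.3.3 and matplotlib 3.10.9 were used. The 9 alternatives varied scale, floor and probe set choice.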

Additional observations from a re-analysis of the deposited data

How the results depend on the processing

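Across 9 alternatives to the processing, none of the 9 members changed side of 0, and 6 of them moved by less than the probe error of 0.34 in each alternative that gave a value. Aldh1a2, Aldh1a3 and Rarb moved by more, mainly with the floor. Much of this stability was set by construction. Centring subtracts the same -0.33 from every gene, a size below the probe error. A changed floor or log2(signal + 16) cannot carry a probe set across 0. Probe set choice could hardly act, as 8 of the 9 members had 1 measured probe set. Aldh1a3, Rara and Cyp26a1 were not measured with the floor at the 75th percentile, which is set by its construction. At least 2-fold higher were 2 members in place of 1 after centring on the median ratio, quantile normalization, scaling to the same trimmed mean and scaling to the hybridisation controls, and 0 with the higher floor or with log2(signal + 16). The members' median log2 ratio was -2.13 for a floor at the 25th percentile, -1.49 at the 75th and -1.70 with log2(signal + 16). Of the other retinoid genes, 3 in place of 1 were at least 2-fold higher after centring or quantile normalization, 2 after lowering the floor to the 25th percentile or without _x_at and _s_at probe sets, and 0 after raising it to the 75th. The lower floor gave 8 in place of 3 genes that were at least 2-fold lower, while it raised the measured genes of the arrays from 11789 to 15746. Apart from centring, shares over all measured genes are not given for the alternatives. Counts under them thus have no background beside them. The target genes' median was -0.43 after quantile normalization, and 5 in place of 9 were at least 2-fold lower with the floor at the 75th percentile. Apart from the scalings and floors, the cause of these shifts was not tested. No paired analysis was possible because each group has 1 sample. Dim signal limits Aldh1a3, Rara, Rarb and Cyp26a1.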

Other observations

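The promoter repeat with 5 bases between half-sites was in the windows of 31 mouse genes, of which 11 had a probe set with 1 symbol and 6 were measured. This set was defined by sequence after the members had been seen. Besides Cyp26a1 and Rarb, it held Blvrb, the biliverdin reductase B gene, at 106 in Venus-positive cells against 338 in Venus-negative cells, 3.18-fold lower. It also held the embryonic globin gene Hbb-y, nearly level at 11912 in Venus-positive cells against 13190.2 in Venus-negative cells. Hbb-y was read on an _x_at probe set, near the highest signals of the arrays, 13442 for Venus-positive and 14853 for Venus-negative cells. Whether such bright signals hold its ratio near level was not tested. Syndig1 and Prokr2 were below the floor in Venus-positive cells and at least 1.91-fold and at least 1.43-fold lower. So 1 of the 6 was at least 2-fold higher and 2 were at least 2-fold lower, beside 2.79% and 11.6% of all measured genes. The higher one was Cyp26a1, and the lower ones were Rarb and Blvrb. Because Cyp26a1 and Rarb led to this set, these shares are a description only.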
